A study of Mus musculus with 6 samples.

Results

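The annexins Anxa1, Anxa2, Anxa3, Anxa4, Anxa5, Anxa6, Anxa7 and Anxa11 and the S100 genes S100a10 and S100a11 were followed in the ectoderm over the mouse eye. These 10 genes were taken by symbol, and they have 20 of the 45281 probes on the array. The set was assembled around Anxa2, which had been noted as the strongest rise in Pax6 knockout tissue. The change of Anxa2 is therefore given as a description with no test. The other 9 genes entered as members of the family, but earlier results of these data were known when the set was chosen. Their p-values are thus not those of a choice made blind to the data. A probe was counted as expressed at a detection p under 0.01 on at least 3 of the 6 arrays. By that rule 11 of the 20 probes and 8 of the 10 genes were expressed, of 9190 genes tested in all, and Anxa3 and Anxa11 were not.

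Wild-type tissue was lens placode and Pax6-/- tissue was surface ectoderm, both at embryonic day 9.5 on a mixed background (FVB; 129), with 3 Illumina bead arrays per genotype. The tissue was cut from frozen sections by laser, the RNA of 3 embryos per genotype was pooled, and each pool was amplified in triplicate. The p-values therefore compare 1 pool with 1 pool and measure the spread of amplification and array, and the spread between embryos was not measured. The Pax6 allele is not described in the labels, and the dissected region differs in name between the genotypes, so genotype and region cannot be told apart.

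Annexins are cytosolic proteins that attach to acidic phospholipids of membranes when calcium rises, and they take part in membrane traffic, membrane repair and the link between the membrane and cortical actin. S100 proteins are small EF-hand proteins that dock on the amino-terminal tails of certain annexins. S100A10 holds Anxa2 in a tight complex at the plasma membrane without needing calcium, and S100A11 binds the tail of Anxa1 in a calcium-dependent way. Anxa1, Anxa2 and S100A11 are well known from the epidermis.

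The starts of Anxa2, S100a11 and Anxa1 are shown because the first 2 genes were higher and the last was lower in the knockout. Promoter sequences came from RefSeq (GRCm38.p6), which matched 7 of the 10 genes with 9 start sites. S100a10, Anxa3 and Anxa6 had no entry in the table. Each line gives the 250 bases before the annotated start, 5′ to 3′ on the gene's strand, and capitals mark matches to the motifs searched.
Anxa2, chr9:69453433-69453682, plus strand: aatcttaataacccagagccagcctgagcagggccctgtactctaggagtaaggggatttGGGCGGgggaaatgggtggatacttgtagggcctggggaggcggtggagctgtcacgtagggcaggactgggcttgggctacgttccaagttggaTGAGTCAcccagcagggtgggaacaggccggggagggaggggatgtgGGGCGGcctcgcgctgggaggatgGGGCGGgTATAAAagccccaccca
S100a11, chr3:93520246-93520495, plus strand: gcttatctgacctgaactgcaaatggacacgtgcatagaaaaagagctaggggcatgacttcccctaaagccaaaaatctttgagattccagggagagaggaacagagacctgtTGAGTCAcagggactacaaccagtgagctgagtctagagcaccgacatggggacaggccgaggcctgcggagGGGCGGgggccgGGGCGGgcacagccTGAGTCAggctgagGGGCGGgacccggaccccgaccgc
Anxa1, chr19:20390672-20390921, minus strand: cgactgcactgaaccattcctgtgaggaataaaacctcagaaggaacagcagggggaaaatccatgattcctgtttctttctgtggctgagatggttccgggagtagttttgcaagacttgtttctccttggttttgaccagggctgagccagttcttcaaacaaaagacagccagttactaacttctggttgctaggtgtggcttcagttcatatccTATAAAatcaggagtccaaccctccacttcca

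Both strands were searched for TGANTCA (the AP-1 motif), GGGCGG (the GC box), TATAAA (the TATA box) and TAAT and ATTA with 3 bases between them (a homeodomain dimer motif used by Pax6). The Anxa2 window held 1 AP-1 match, 3 GC boxes and 1 TATA box, and the S100a11 window held 2 AP-1 matches and 3 GC boxes. The Anxa1 window held 1 TATA box and 0 matches to the AP-1 and GC box motifs. The Anxa7 windows held 1 and 4 GC boxes, the window of the unexpressed Anxa11 held 3, and the windows of Anxa4 and Anxa5 held 0. AP-1 and TATA matches were 0 in the windows of Anxa4, Anxa5, Anxa7 and Anxa11. None of the matches in the 3 windows shown overlapped another. Among the upstream windows of all 32851 RefSeq start sites, 6.75% held an AP-1 match, 32.7% a GC box, 12.4% a TATA box and 0.463% the homeodomain dimer. The dimer was in none of the 9 windows of these genes. At so low a share that absence says little, and no other Pax6 motif was searched. The motifs were chosen with the sequences in view, and the matches describe letters, not binding. The GC content was 62.4% for Anxa2, 60% for S100a11 and 46% for Anxa1.

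Anxa2, its binding partner S100a10 and the related S100a11 were higher in the knockout, while Anxa1 was detected in wild type and on no knockout array. Anxa4, Anxa5, Anxa6 and Anxa7 did not pass the test. In the limma comparison over all genes, 3 of the 8 expressed genes were higher and 1 was lower at an adjusted p under 0.05, counting Anxa2. Over all tested genes 1.51% were called higher and 1.76% lower (139 and 162 genes, or 93 and 264 with median scaling). The genotypes did not overlap for 6 of the 8 genes, against 22.8% of all tested genes. At an unadjusted p under 0.05 the share of all tested genes was 16.9%, and when every kept probe was tested 2.78% of probes were called. Nothing is read from these member counts, because Anxa2 was chosen from the same comparison and Anxa1 passed the detection rule through its wild-type arrays alone.

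**Figure D1:**
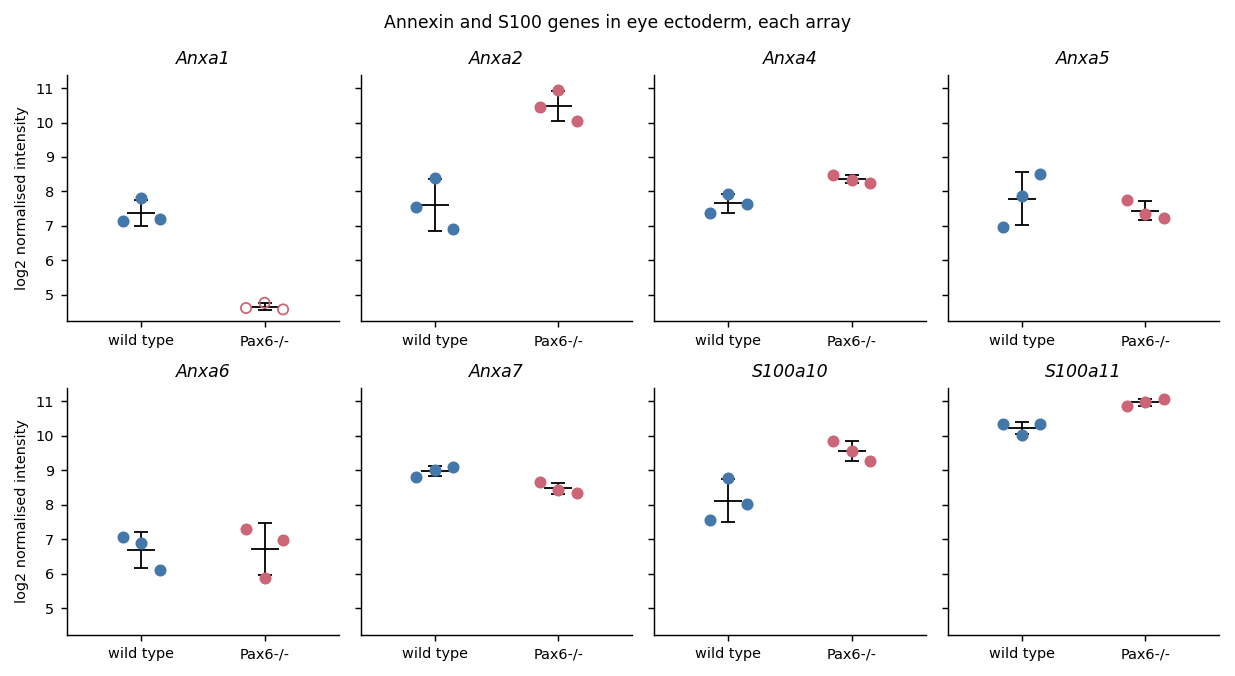
Log2 normalised intensity (vertical axis) of the 8 expressed annexin and S100 genes on each of 3 wild-type and 3 Pax6-/- arrays. Filled points were detected, open points were not, and the bars show mean ± SD. All knockout arrays lie above all wild-type arrays for Anxa2, Anxa4, S100a10 and S100a11, and below them for Anxa1 and Anxa7. The panels share 1 axis, but levels of different probes are not comparable.

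Anxa2, whose protein bridges membranes and actin, stood at log2 intensities of 7.54, 8.40 and 6.90 on wild-type arrays 1, 2 and 3 and at 10.44, 10.94 and 10.05 on knockout arrays 1, 2 and 3. The lowest knockout array lay well above the highest wild-type array. The means were 7.61 ± 0.75 and 10.48 ± 0.44 (SD, n = 3 arrays each), a difference of 2.87 on the log2 scale (SE 0.34), or 7.29-fold. Slides were inferred from the number that opens each array's column name. By that number wild-type array 2 and knockout array 1 share slide 2, and the other arrays share slide 1. The difference was 3.28 between the arrays of slide 1 and 2.05 between the 2 arrays of slide 2. Without background correction it was 2.25. A second Anxa2 probe was dim. It was detected on knockout arrays 2 and 3, at 6.44 and 6.30, and was not detected on knockout array 1 (4.48) or on any wild-type array (4.39 to 4.52). This probe failed the detection rule and was not tested, and its genotypes overlapped.

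The deposited signals showed the same order before any correction. The main Anxa2 probe read 325, 445 and 244 mean bead signal in wild type and 1514, 1945 and 1191 in the knockout, each averaged over 33 to 51 beads with a bead standard error of 2.63% to 4.14% of the signal. The spread between arrays of a genotype was thus wider than the error within an array.

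**Figure D2:**
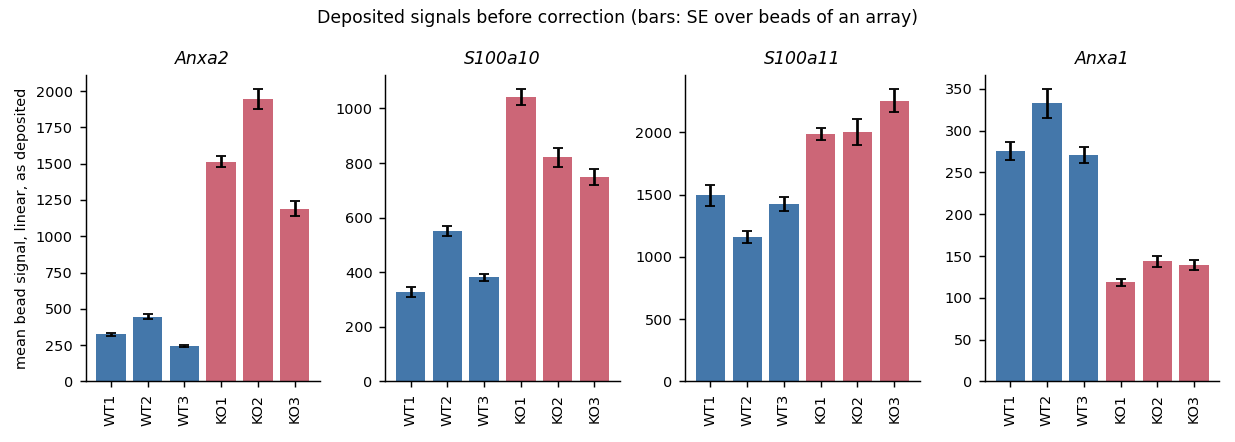
Mean bead signal as deposited (vertical axis, linear, from 0) of Anxa2, S100a10, S100a11 and Anxa1 on each array, with bars for the standard error over the beads of an array. Blue bars are wild type (WT) and red bars Pax6-/- (KO). Anxa2 lies at most at 445 in wild type and at least at 1191 in the knockout, and Anxa1 at least at 271 and at most at 144, a level at which it was not detected.

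S100a10, the light chain of the Anxa2 complex, stood at 7.56, 8.78 and 8.01 on wild-type arrays 1, 2 and 3 and at 9.84, 9.56 and 9.27 on knockout arrays 1, 2 and 3. The genotypes did not overlap, although wild-type array 2 came close to the knockout. S100a10 rose by 1.44 on the log2 scale (SE 0.29, limma adjusted p = 0.022), or 2.71-fold. The change was 1.44 with the slide as a block (limma adjusted p = 0.00864), 1.63 on slide 1 alone (limma adjusted p = 0.0444) and 1.06 on slide 2 (1 array per genotype, no test). Leaving out wild-type array 1, wild-type array 3, knockout array 1 or knockout array 2 ended the S100a10 call, as did a fit with no intensity trend (change 1.16 to 1.44, limma adjusted p 0.06 to 0.0985).

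S100a11, which docks on Anxa1, stood at 10.33, 10.02 and 10.33 on wild-type arrays 1, 2 and 3 and at 10.86, 10.98 and 11.06 on knockout arrays 1, 2 and 3. Every knockout array was above every wild-type array, with little spread in either genotype. S100a11 rose by 0.74 (SE 0.13, limma adjusted p = 0.00868), or 1.67-fold. The change was 0.74 with the slide as a block (limma adjusted p = 0.00841), 0.69 on slide 1 alone, where the call was lost (limma adjusted p = 0.0981), and 0.84 on slide 2 (1 array per genotype, no test). The call was also lost without an intensity trend (limma adjusted p = 0.0881).

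S100a10 and S100a11 are next to each other on chromosome 3, with 0 protein-coding genes between them in the RefSeq order. Of 15 S100a genes on that chromosome 13 were on the array and 4 were expressed by the detection rule, including these 2. The next gene beyond S100a10, Tdpoz2, was expressed and stood at -0.03 (limma adjusted p = 0.98).

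Anxa1, a phospholipid-binding protein known for restraining inflammation, stood at 7.13, 7.80 and 7.18 on wild-type arrays 1, 2 and 3. On knockout arrays 1, 2 and 3 it stood at 4.61, 4.76 and 4.57, none of which was a detected signal. Anxa1 was at least 3.11-fold lower in the knockout (limma adjusted p = 0.00144), a bound taken against the lowest detected signal of each knockout array. Anxa1 passed the detection rule through its wild-type arrays alone, so this p is conditional on a signal there. With no detection filter, over 19057 genes, the limma adjusted p was 0.00567. The measured means were 7.37 ± 0.37 and 4.65 ± 0.10 (SD, n = 3 arrays each). Their difference, -2.72 (SE 0.34), depends on how background is treated: it was -1.76 with an offset of 50, -1.13 without background correction and -3.31 in the authors' normalised table, with limma adjusted p of at most 0.00206 in each. It was -2.72 with the slide as a block (limma adjusted p = 0.0028), -2.47 on slide 1 alone (limma adjusted p = 0.0394) and -3.19 on slide 2 (1 array per genotype, no test). These settings kept the detection rule, so their p-values carry the same condition and add no support. Anxa1 had 1 probe, with raw signals of 276, 333 and 271 in wild type and 119, 144 and 139 in the knockout.

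Anxa2 and Anxa1 differed in opposite directions between the same arrays. Wild-type array 2 had the highest Anxa2, S100a10 and Anxa1 signal of its genotype and the lowest S100a11 signal. The RNA came from whole captured tissue, so fewer cells of a type and less RNA per cell cannot be told apart.

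The other expressed annexins did not pass the test, and their probes did not all go one way. Anxa4, an annexin of epithelial membranes, stood at 7.38, 7.93 and 7.64 on wild-type arrays 1, 2 and 3 and at 8.47, 8.34 and 8.24 on knockout arrays 1, 2 and 3, without overlap (0.70, SE 0.24, limma adjusted p = 0.165). A second Anxa4 probe also did not overlap between genotypes (0.60, SE 0.28), while a dimmer Anxa4 probe lay the other way and overlapped (-0.31, SE 0.35). Neither passed over all kept probes (limma adjusted p = 0.325 and 0.748).

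Anxa7, whose tail binds the calcium sensors sorcin and ALG-2, stood at 8.82, 9.002 and 9.09 on wild-type arrays 1, 2 and 3 and at 8.65, 8.42 and 8.34 on knockout arrays 1, 2 and 3. The genotypes were separate but close (-0.50, SE 0.19, limma adjusted p = 0.213). A second Anxa7 probe, detected on 4 arrays, stood at -0.35 (SE 0.37, limma adjusted p = 0.715 over all kept probes). A further Anxa7 probe was not detected on any array.

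Anxa5, the annexin used as a probe for exposed phosphatidylserine, varied most in wild type, at 6.97, 7.88 and 8.50 on arrays 1, 2 and 3, against 7.74, 7.34 and 7.24 in the knockout. The genotypes overlapped (-0.35, SE 0.37, limma adjusted p = 0.702), and without wild-type array 3 the difference was 0.01. Anxa6, a large annexin with a duplicated core, stood at 7.06, 6.90 and 6.10 in wild type and 7.29, 5.87 and 6.98 in the knockout. The spread within each genotype exceeded the difference (0.03, SE 0.43, limma adjusted p = 0.986), which ranged from -0.27 to 0.45 with 1 array left out.

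Anxa3 and Anxa11 were at the edge of detection. Anxa3, known from immune cells and placenta, had 2 probes detected on 2 arrays and 1 array. Their levels ran from 5.04 to 6.17 over the 6 arrays, with knockout array 3 highest for both. Anxa11, an annexin that also associates with RNA granules, had 3 probes, of which 1 was detected on wild-type array 1 alone. The brighter Anxa3 probe just missed the detection rule, with the third-lowest of its 6 detection p-values at 0.0139, while the dimmer Anxa7 probe passed with 0.00641.

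**Figure D3:**
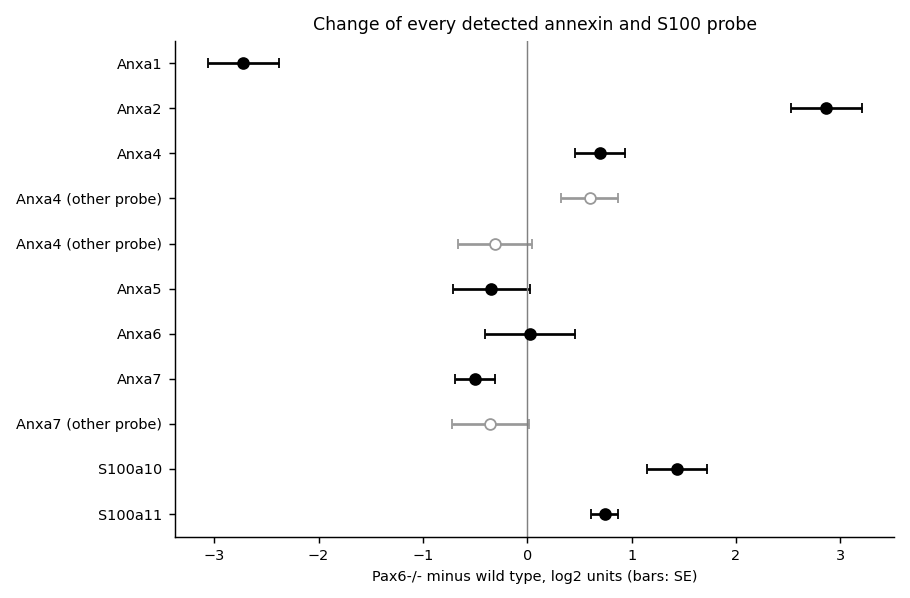
Difference between Pax6-/- and wild type in log2 units (horizontal axis) for the 11 annexin and S100 probes that passed the detection rule. Black points are the probe that stands for its gene, open points are further probes of Anxa4 and Anxa7, and bars show the SE. Anxa2 and Anxa1 lie at 2.87 and -2.72, S100a10 and S100a11 at 1.44 and 0.74, and the Anxa4 probes on both sides of 0.

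The remaining annexins and most other S100 genes were below the detection rule. All 4 other annexins on the array (Anxa8, Anxa9, Anxa10 and Anxa13) had no expressed probe. The list of 15 other S100 genes also holds S100pbp, which encodes a binding partner of an S100 protein and not an S100 protein. Of these 15 genes 3 were expressed, S100a6, S100a13 and S100pbp, and limma called 0 of them (1 at an unadjusted p under 0.05). S100a13, which takes part in unconventional secretion of growth factors, stood at 0.60 (SE 0.24, limma adjusted p = 0.237). S100a6 stood at -0.28 (SE 0.42, limma adjusted p = 0.803). S100pbp stood at -0.27 (SE 0.37), which is also the list's median, against -0.01 over all tested genes. S100a4, S100a8, S100a9 and S100b were not detected on any array.

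Among the genes listed as related to annexins, Ahnak rose, Insr and Actn1 fell, and the others did not pass. The related lists together held 98 genes, including the other annexins and S100 genes above and further phospholipid binders. Of these 98 genes, 87 were on the array and 49 were tested, of which 1 rose and 2 fell (median -0.07, against -0.01 over all tested genes). Ahnak, the giant scaffold that the Anxa2 and S100A10 complex carries to the plasma membrane, was called, and the other 14 tested genes of the membrane repair and ESCRT list were not (list median -0.04). It stood at 11.40, 11.31 and 11.15 on wild-type arrays 1, 2 and 3 and at 12.11, 12.04 and 12.06 on knockout arrays 1, 2 and 3, with a gap between the genotypes wider than the range within either. Ahnak rose by 0.79 (SE 0.09, limma adjusted p = 0.000983), by 0.79 with the slide as a block (limma adjusted p = 0.00237), by 0.77 on slide 1 alone (limma adjusted p = 0.0385) and by 0.81 on slide 2 (1 array per genotype, no test). With no intensity trend in the fit Ahnak did not pass (limma adjusted p = 0.0565). Its 6 kept probes lay from 0.01 to 2.01, and 4 of them passed over all kept probes. The 2 that did not pass stood at 0.01 (limma adjusted p = 0.989) and 1.35 (limma adjusted p = 0.0627).

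The EF-hand partners, which include the calpains and calmodulins, had 0 of 7 genes called by limma (2 at an unadjusted p under 0.05, median -0.15). Those 2 were Pef1 at 0.87 (SE 0.32) and Capn1 at -1.01 (SE 0.32). The brightest probes of the list, for the calmodulin genes Calm2 and Calm3, stood at -0.03 (SE 0.08) and -0.15 (SE 0.10). Among the copines and other calcium-dependent phospholipid binders 0 of 6 were called (2 at an unadjusted p under 0.05, median -0.08). Those 2 were Cpne2 at 1.25 (SE 0.39) and Pla2g4a at -0.93 (SE 0.30). The brightest, the copine Cpne1 and the extended synaptotagmin Esyt2, stood at -0.07 (SE 0.18) and -0.09 (SE 0.33).

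Anxa2 and S100A10 are known as a surface receptor for plasminogen, and the plasminogen list had 0 of 3 genes called by limma (0 at an unadjusted p under 0.05, median -0.03). The activator gene Plat stood at -0.65 (SE 0.32) and the plasminogen receptor gene Plgrkt at 0.31 (SE 0.43). Of 5 annexin receptors and kinases (median -0.06), Insr, the insulin receptor, fell by 0.82 (SE 0.19, limma adjusted p = 0.0437). The Insr call was lost with the slide as a block (limma adjusted p = 0.0635), on slide 1 alone (-0.63, limma adjusted p = 0.329), with no detection filter, without an intensity trend and without any 1 array other than wild-type array 3 (limma adjusted p up to 0.164). Its difference on slide 2 was -1.18 (1 array per genotype, no test).

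Of 10 cortical actin and membrane linkers (median -0.01), Actn1, an actin crosslinker, fell by 0.96 (SE 0.19, limma adjusted p = 0.0189). The Actn1 call was lost on slide 1 alone (-0.99, limma adjusted p = 0.164) and without any 1 array other than knockout array 3 (limma adjusted p 0.0502 to 0.0749). Its difference on slide 2 was -0.91 (1 array per genotype, no test).

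The 5 genes outside these lists whose centred profile over the 6 arrays was nearest to that of Anxa2 were Miat, Gm7361, Bhlhe40, Chst15 and Septin3, with a root mean square difference of 0.48 to 0.58 log2 units. Gm7361 and Bhlhe40 were not detected on any wild-type array, so their distances rest in part on values not above background. Miat, a long noncoding RNA, was nearest and shared with Anxa2 the order of the wild-type arrays, at 7.63, 8.34 and 6.68 on arrays 1, 2 and 3. Septin3 had that order too, at 7.35, 7.61 and 6.92. Among the annexin and S100 genes S100a10 was nearest to Anxa2, at 0.82, and Anxa1, whose knockout values were not above background, farthest, at 2.81. The profiles are driven by the genotype difference for which Anxa2 was chosen, and the 6 arrays share 2 RNA pools.

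Pax6 was detected on every array and fell by 0.97 (SE 0.13, limma adjusted p = 0.00237), which does not check the deletion because the deleted part is not given. On slide 1 alone its limma adjusted p was 0.0552. Arrays of the same genotype correlated at 0.947 to 0.954 across genes and arrays of different genotypes at 0.925 to 0.936, so no array stood apart. Markers of several tissues differed between the pools. The summed normalised signal of 10 lens placode genes was 8989 to 9886 in wild type and 4191 to 4552 in the knockout, with Foxe3 and Cryaa never detected. The sum is linear, and Sfrp2, the brightest (mean log2 12.63 in wild type and 11.64 in the knockout), weighs most in it. Of 7 lens genes tested 0 lay above 0, and 5 were called lower, among them Prox1, Maf and Mab21l1. For 16 surface ectoderm genes the sums overlapped, at 23339 to 24953 and 22628 to 23562, with Krt15 and Krt19 never detected, and 4 of 13 tested were called higher, among them Krt14 and Perp, and 1 lower, Dlx3. The sums were higher in the knockout for 8 erythroid genes (2273 to 2634 against 4572 to 5066). Of 4 tested, 3 were called higher, Hba-a1, Hbb-bh1 and Hbb-y. The sums of 12 mesenchyme genes were also higher (5876 to 6274 against 8080 to 8692). Of 11 tested, 8 lay above 0 and 3 were called higher, Alx4, Col3a1 and Sox9. Pdgfra was called lower (-1.23, SE 0.15, limma adjusted p = 0.00144). Sox9, the brightest mesenchyme gene (mean log2 11.39 in wild type and 12.14 in the knockout), weighs most in this linear sum. For 11 neural tube and optic vesicle genes the sums were 505 to 615 against 957 to 1364 (1 of 5 called higher, Zic1). Epor, Ermap, Col1a1, Zic2, Sox1, Sox3 and Tubb3 were never detected. The part of these tissues in the annexin and S100 differences was not tested.

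Macrophages and endothelium, which express annexins and S100 genes in other tissues, had few detected markers. Of 10 macrophage genes 7 were never detected, Ptprc, Lyz2, Adgre1, Fcer1g, C1qa, C1qb and Mrc1, and the sums overlapped at 292 to 398 in wild type and 373 to 614 in the knockout. The 1 macrophage gene tested, Aif1, was detected on 1 wild-type and 2 knockout arrays. It stood at 1.08 (SE 0.68, limma adjusted p = 0.463). Of 11 endothelial genes 7 were never detected, Pecam1, Cdh5, Kdr, Tek, Tie1, Sox17 and Sox18, with overlapping sums of 616 to 899 and 584 to 845. The 3 tested, Cldn5, Egfl7 and Esam, stood at 0.68 (SE 0.36), -0.25 (SE 0.26) and -0.42 (SE 0.58), and 0 were called. Cldn5 and Egfl7 were detected on all 6 arrays. Undetected genes still add background signal to these sums, so their overlap cannot show the share of such cells. Whether such cells were present was not tested.

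**Figure D4:**
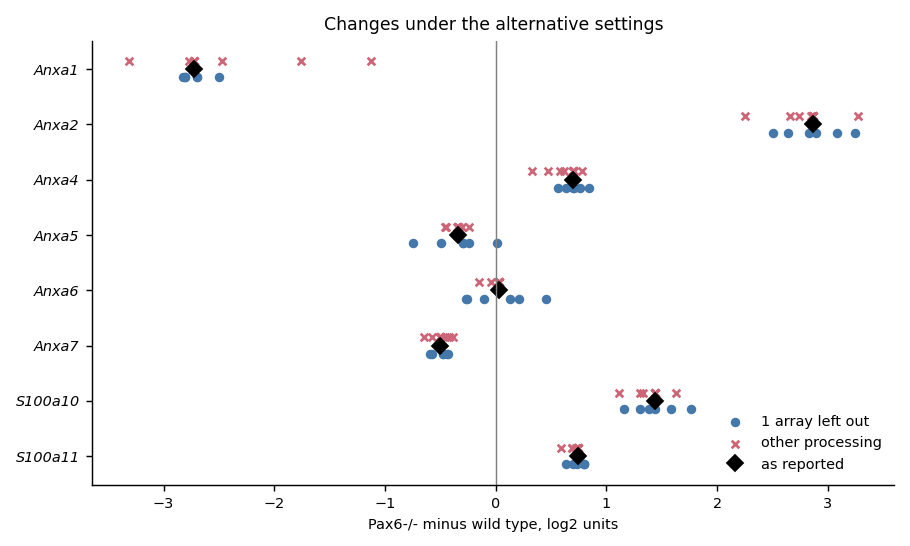
Difference between Pax6-/- and wild type in log2 units (horizontal axis) for the 8 expressed genes as reported (black diamonds), with 1 array left out (blue points) and under other processing (red crosses). Anxa2, S100a10, S100a11 and Anxa4 stay above 0 and Anxa1 and Anxa7 below 0 in all of the settings shown, while Anxa5 and Anxa6 cross 0. Anxa1 spans -3.31 to -1.13.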

How the data were processed

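Per the file headers, the authors deposited for each probe the intensity averaged over its beads (linear, before normalisation), its detection p-value, the count of beads and their standard error. The submitters' processing notes name GenomeStudio, without settings. The authors' second intensity table, background-subtracted and normalised by a method not stated, has column medians of about 15.5 with 25.1% to 25.2% of values below 0 and served as an alternative.

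Signals were corrected with normexp (limma 3.58.1 in R 4.3.3, function nec on detection p-values, offset 16), quantile-normalised and log2-transformed. The platform annotation gave 34885 probes 1 symbol, 18 several and 10378 none. All 45281 probes entered the correction and normalisation, and only those with 1 symbol entered the comparison. Each gene was represented by its brightest probe detected at p under 0.01 on at least 3 of 6 arrays. The genotypes were compared in limma's moderated linear model with an intensity trend, two-sided, adjusted by Benjamini-Hochberg over 9190 genes and called under 0.05, and the procedure was tested on simulated data. Each array detected 35.9% to 39.2% of probes, with a median of 44 or 45 beads. The 3 arrays of a genotype share 1 RNA pool, so they limit how precisely that pool was measured. The comparison of genotypes is limited by having 1 pool each.

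The members and lists were chosen with earlier results of these data known. Named beside the members were called genes of each related list (otherwise its 2 brightest), Pax6, up to 3 called markers per list and the 5 profiles nearest to Anxa2. Undetected, overlapping and neighbouring genes were named after their values were seen. So were S100a6, Sfrp2, Sox9, the tested macrophage and endothelial markers, and some uncalled genes of the related lists.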

Additional observations from a re-analysis of the deposited data

How the results depend on the processing

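The Anxa1 difference ranged from -3.31 to -1.13 over 16 alternatives. Anxa1 entered most of them through its wild-type arrays alone, so its calls there are no measure of stability, and with no detection filter its limma adjusted p was 0.00567. The Anxa2 difference ranged from 2.25 to 3.27. S100a10 kept its call in 12 of 17, S100a11 in 15 and Ahnak in 16, each with the direction kept in all 17. Anxa4 and Anxa7 passed the test in 0 of 17 alternatives (limma adjusted p from 0.147 and 0.112), like Anxa5 and Anxa6 (from 0.296 and 0.668), which also changed sign.

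With no detection filter 89 genes were called higher and 107 lower, without an intensity trend 72 and 104, and on slide 1 alone 29 and 41. Median scaling called 93 higher and 264 lower (26.1% higher, where the reported calls had 46.2%) and moved the median of all genes from -0.01 to -0.13. Relative to that median Anxa2 stood at 2.87, S100a10 at 1.44, S100a11 at 0.72 and Anxa1 at -2.64.

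Without an intensity trend 1 member was higher, which was Anxa2, chosen for its rise, and neither S100a10 nor S100a11 passed. With detection required on all 6 arrays 0 members were called lower by limma (1 at an unadjusted p under 0.05), because Anxa1 was not tested there. Among the related genes 0 were higher without an intensity trend (7 at an unadjusted p under 0.05). Of them 1 was lower with no detection filter, 1 without an intensity trend, 1 with the slide as a block and 0 on slide 1 alone (6 at an unadjusted p under 0.05). With 1 array left out, 59 to 108 genes were higher and 86 to 124 lower, 2 to 3 members were higher and 1 lower, and 1 related gene was higher and 0 to 1 lower. The causes of these shifts were not tested.

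With the replicate block 81 genes were called higher and 101 lower, and 0 related genes lower (6 at an unadjusted p under 0.05). The deviations of same-numbered arrays correlated at -0.03, -0.02 and -0.002. Wild-type array 2 and knockout array 1, which share slide 2, correlated at only 0.04. The measure thus hardly registers the sharing inferred from the array names, and it cannot show whether the replicate numbers pair the arrays. Members without a detected signal have only a bound, so a lower level there was not detectable.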
